A study of Rattus norvegicus with 115 samples.

Results

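Fbn1, Fn1, Sparc, Lox, Loxl1, Mmp2, Mmp14, Adamts4, Timp1 and Timp3 are 10 of the 17455 genes in a count table from rat mammary tumours. They were chosen by name, as genes that build, crosslink and cut the extracellular matrix, and all 10 were found in the table under these symbols. Their levels are given in CPM, the count of a gene scaled to a common total count of its column. A column of the table is named for a rat and a tumour and not for a cell fraction, so columns were classed by 3 marker genes. Columns with at least 300 CPM of Ptprc, which encodes the leukocyte protein CD45, are called leukocyte columns. Columns with under 150 CPM of Ptprc are called matrix-rich where Col1a1, a chain of type I collagen, was at or above Epcam, an epithelial adhesion molecule, and epithelium-rich where it was below. The median Col1a1 level was 6179 CPM over matrix-rich columns, 72.2 CPM over epithelium-rich columns and 8.19 CPM over leukocyte columns, which follows from the rule and is no result.

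Fibrillin-1 (Fbn1) forms the microfibrils that carry elastin and hold latent TGF-beta, fibronectin (Fn1) forms the fibrils on which cells and other matrix proteins assemble, and SPARC is a secreted protein that binds collagen during its deposition. The lysyl oxidases encoded by Lox and Loxl1 oxidise lysines of collagen and elastin so that the fibres crosslink. MMP14, a membrane-bound collagenase, activates the gelatinase MMP2, and ADAMTS4 cuts proteoglycans. TIMP1 and TIMP3 are secreted inhibitors of matrix metalloproteinases, and TIMP3 is bound to the matrix. In mammary tumours most of this matrix is laid down by fibroblasts, and TGF-beta is a known inducer of many of these genes.

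The tumours were induced in virgin Sprague Dawley rats by injecting N-nitroso-N-methylurea, a carcinogen, 1 to 3 times (NMU, 50 mg/kg) when the animals were 35 to 53 days old, so rats of every group had received the carcinogen. Animals with palpable tumours were given a monoclonal antibody against PD-L1, the TGFBR1 inhibitor LY2157299 (galunisertib), both agents in combination, or vehicle, and a separate cohort had tumours and no drug. RNA from sorted cells of dissociated tumours was amplified from small inputs. The labels name the sorted fractions CD45, Ep and DN, and untreated tumours have samples of CD45 and Ep only. The classes used here are not these fractions: vehicle rat P10 and anti-PD-L1 rat P38, both labelled DN, fell in the epithelium-rich class. Combination rat P23, with a DN and a CD45 sample, had a column in that class too. Of the columns whose name fits a single sample, none from the drug or vehicle arms was matrix-rich. How the fractions spread over the classes by treatment was not tested. Columns came from 7 rats on anti-PD-L1, 5 on the TGFBR1 inhibitor, 7 on the combination, 9 on vehicle and 8 with untreated tumours. The rat, which received the treatment, is the replicate, and the counts of all columns of a rat in a class were added up. Several tumours can come from the same rat, the tumours are induced and differ between rats, and collagenase digestion came before the sort, so the RNA is that of released cells.

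The start-site regions of Loxl1, Sparc and Timp3 are shown because Loxl1 and Sparc followed the collagen genes most closely below, whereas Timp3 was high in epithelium-rich columns as well. They come from RefSeq, rat build GRCr8, which matched 6 of the 10 genes (Fbn1, Loxl1, Timp1, Timp3, Adamts4 and Sparc), and run from 250 bases before the gene start to 50 bases after it. Capitals mark matches, on either strand, to CAGAC (the Smad box), GGAATG (bound by TEAD factors) and GGGCGG (the GC box of Sp1). The Loxl1 region is chr8:67612175-67612474, that of Sparc is chr10:40038767-40039066 and that of Timp3 is chr7:19459509-19459808, all on the minus strand and printed 5′ to 3′ in the direction of the gene.
Loxl1: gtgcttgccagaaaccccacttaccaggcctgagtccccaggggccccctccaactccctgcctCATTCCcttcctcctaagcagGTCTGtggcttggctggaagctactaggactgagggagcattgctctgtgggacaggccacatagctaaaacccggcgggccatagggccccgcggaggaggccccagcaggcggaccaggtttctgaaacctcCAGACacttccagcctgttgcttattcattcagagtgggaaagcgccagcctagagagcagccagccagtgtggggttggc
Sparc: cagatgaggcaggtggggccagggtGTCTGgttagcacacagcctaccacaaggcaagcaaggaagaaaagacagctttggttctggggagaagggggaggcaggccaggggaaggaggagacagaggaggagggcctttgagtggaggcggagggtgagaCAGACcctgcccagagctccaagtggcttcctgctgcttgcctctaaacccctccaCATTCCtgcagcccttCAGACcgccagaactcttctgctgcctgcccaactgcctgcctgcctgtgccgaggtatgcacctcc
Timp3: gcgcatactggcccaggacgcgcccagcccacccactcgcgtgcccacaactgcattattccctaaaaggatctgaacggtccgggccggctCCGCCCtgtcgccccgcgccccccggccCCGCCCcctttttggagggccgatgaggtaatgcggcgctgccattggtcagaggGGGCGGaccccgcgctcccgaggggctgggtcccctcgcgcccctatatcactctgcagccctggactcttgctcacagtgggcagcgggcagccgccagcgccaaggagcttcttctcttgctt

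CAGAC occurred 2 times in the Loxl1 region and 3 times in the Sparc region, and also in those of Fbn1 and Adamts4, while 50.1% of 33469 promoters hold it. GGAATG was found in the regions of Loxl1, Sparc and Timp1 and in 14.2% of all promoters. GGGCGG was found 3 times in the Timp3 region and also in that of Timp1, against 33.1% of all promoters. Neither TATAAA nor TGANTCA, the AP-1 site, occurred in the 6 regions, and 14.2% and 7.33% of all promoters hold them. The Timp3 region had a GC content of 68.7%, and those of Loxl1 and Sparc had 61% each, against a median of 51.7% over all promoters. These matches describe letters in this window and not binding.

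Of the 107 columns used, 18 from 14 rats were matrix-rich, 44 from 26 rats were epithelium-rich and 44 from 31 rats were leukocyte columns. The column of 1 untreated tumour lay between the Ptprc limits. Total counts per column ran from 2353564 to 29727437 with a median of 12418434, so 3 counts, the floor of detection, corresponded to 0.101 to 1.28 CPM. Matrix-rich columns were not free of epithelium: Epcam had a median of 1070 CPM in them, with a range of 11.9 to 2699 CPM, against 2102 CPM in epithelium-rich columns. The fibroblast marker Col1a2 had a median of only 9.74 CPM over matrix-rich rats and 0 over the other classes, while Col3a1 had 14710, 168 and 8.58 CPM in matrix-rich, epithelium-rich and leukocyte rats. The classes are therefore called by their rule and not by a cell type. Classes were cut by markers in the same columns, so the class differences below are descriptions with no test. In bulk libraries, fewer cells of a type and less RNA per cell cannot be told apart.

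Among the fibre genes, Fbn1 had 39.6 CPM in the lowest, 331 CPM in the median and 739 CPM in the highest of 14 matrix-rich rats, against 0.404 CPM in the lowest, 8.84 CPM in the median and 88.8 CPM in the second highest of 26 epithelium-rich rats and 0, 2.02 and 9.21 CPM over 31 leukocyte rats. Every matrix-rich rat was above every leukocyte rat, whereas the matrix-rich and epithelium-rich rats overlapped. Fn1 had 192, 1325 and 3101 CPM in the lowest, median and highest matrix-rich rats, against 0, 48.2 and 342 CPM in epithelium-rich rats and 15.2, 97.96 and 491 CPM in leukocyte rats. It was the only one of the 10 genes with a higher median in leukocyte than in epithelium-rich rats, and its matrix-rich and leukocyte rats overlapped. Sparc, the collagen-binding matricellular gene, had 1517, 4467 and 11450 CPM in the lowest, median and highest matrix-rich rats, against 18.2, 213 and 4252 CPM in epithelium-rich rats and 2.21, 19.9 and 736 CPM in leukocyte rats. The matrix-rich median was 37.4 times the epithelium-rich one for Fbn1, 27.5 times for Fn1 and 20.96 times for Sparc.

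The crosslinking genes had the same order of classes. Lox had 15.8, 107.6 and 206 CPM in the lowest, median and highest matrix-rich rats, 0, 2.87 and 84.2 CPM in epithelium-rich rats and 0, 0.268 and 4.42 CPM in leukocyte rats. Its leukocyte median lay near the 3-count floor. Loxl1 had 107.6, 713 and 5070 CPM in matrix-rich rats, 0, 19.8 and 267 CPM in epithelium-rich rats and 0, 2.40 and 29.1 CPM in leukocyte rats. The matrix-rich median was 37.5 times the epithelium-rich median for Lox and 35.99 times for Loxl1, ratios close to that of Fbn1.

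The 3 proteases differed among themselves in how far they were shared with the epithelium-rich class. Mmp2 had 244, 2103 and 9879 CPM in the lowest, median and highest matrix-rich rats, against 0, 56.5 and 662 CPM in epithelium-rich rats and 0, 2.20 and 74.7 CPM in leukocyte rats, a matrix-rich median 37.3 times the epithelium-rich one. Its activator Mmp14 had 442, 1969 and 5212 CPM in matrix-rich rats, 146, 462 and 965 CPM in epithelium-rich rats and 0.459, 12.9 and 53.1 CPM in leukocyte rats. The matrix-rich median of Mmp14 was 4.27 times the epithelium-rich one, and every epithelium-rich rat was above every leukocyte rat. Adamts4 had 33.2, 133 and 469 CPM in matrix-rich rats, 0.422, 22.4 and 432 CPM in epithelium-rich rats and 0, 1.49 and 28.3 CPM in leukocyte rats, with a ratio of matrix-rich to epithelium-rich medians of 5.94.

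Both inhibitors were well above the floor in epithelium-rich columns too. Timp1 had 120, 493 and 1794 CPM in the lowest, median and highest matrix-rich rats, against 30.6, 107 and 655 CPM in epithelium-rich rats and 7.76, 35.6 and 455 CPM in leukocyte rats, with a ratio of matrix-rich to epithelium-rich medians of 4.62. Timp3 had 97.7, 411 and 898 CPM in matrix-rich rats, 10.8, 203 and 385 CPM in epithelium-rich rats and 0, 1.26 and 6.997 CPM in leukocyte rats. Its ratio of matrix-rich to epithelium-rich medians was 2.02, the lowest of the 10, while its epithelium-rich median was 161 times the leukocyte one. The genes thus fell into a set with ratios of 20.96 to 37.5 (Fbn1, Fn1, Sparc, Lox, Loxl1 and Mmp2) and a set with ratios of 2.02 to 5.94 (Mmp14, Adamts4, Timp1 and Timp3).

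**Figure D1:**
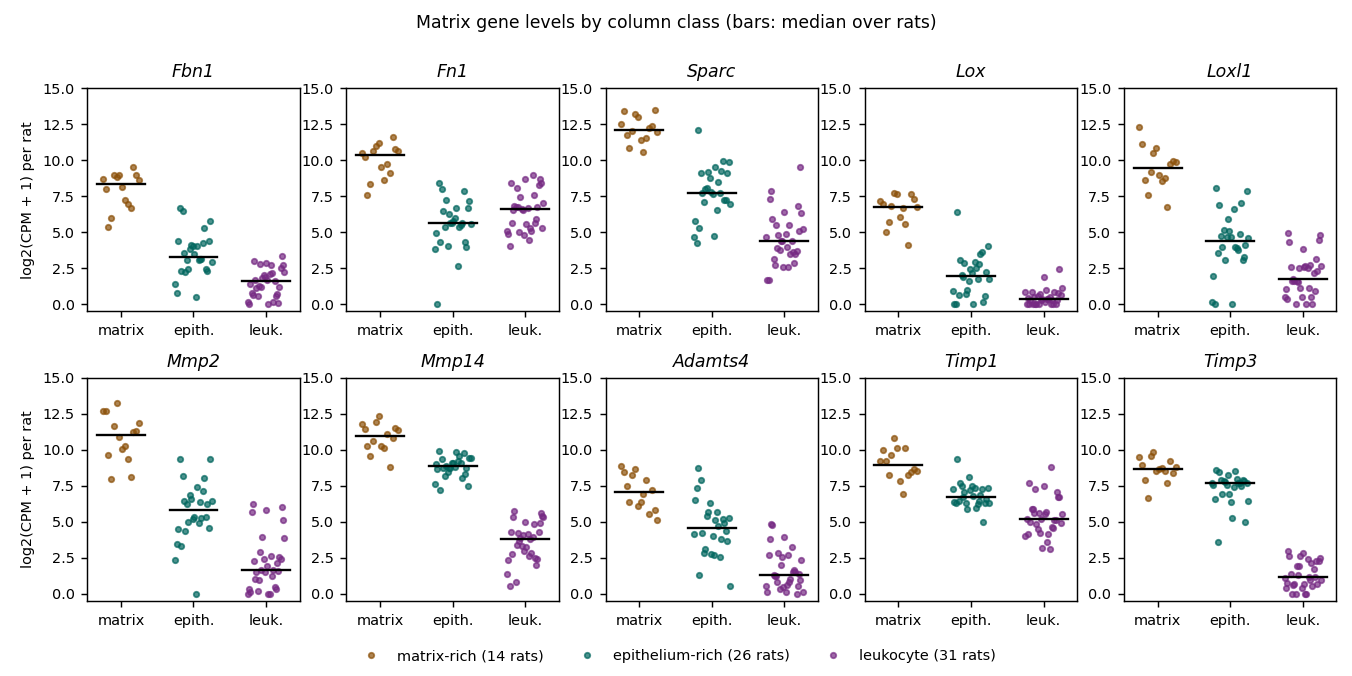
Level of each of the 10 genes as log2(CPM + 1), with 1 point per rat and a bar at the median, in matrix-rich, epithelium-rich and leukocyte columns. Mmp14, Timp1 and Timp3 show the highest epithelium-rich levels relative to their matrix-rich levels, and Fn1 is the gene whose leukocyte median (97.96 CPM) lies above its epithelium-rich median (48.2 CPM).

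Counted gene by gene, no member had every matrix-rich rat above every epithelium-rich rat, where 0.112% of 17031 genes did. In 8 of the 10 every matrix-rich rat was above every leukocyte rat, all but Fn1 and Timp1, against 6.16% of 16968 genes. For Timp3 and Mmp14 every epithelium-rich rat was above every leukocyte rat, against 2.78% of 17006 genes. Near the limits of the rule, the matrix-rich column with the lowest Col1a1 relative to Epcam (tumour P30T2, anti-PD-L1, 1886 and 1595 CPM) had 147 CPM of Fbn1, 370 CPM of Loxl1 and 1517 CPM of Sparc. The epithelium-rich column with the highest such ratio (tumour P7T1, vehicle, 1866 and 2063 CPM) had 68.3 CPM of Fbn1, 311 CPM of Loxl1 and 1226 CPM of Sparc. Both sides of this limit thus held similar levels of Loxl1 and Sparc.

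In 6 tumours both a matrix-rich and an epithelium-rich column were present: 3 of rats on anti-PD-L1, 1 of a rat on the TGFBR1 inhibitor and 2 of vehicle rats. All 10 genes were higher in the matrix-rich column in 6 of 6 tumours. The paired columns were split by Col1a1 against Epcam, and the share of all genes with this pattern was not counted. The difference of log2(CPM + 1), matrix-rich minus epithelium-rich, had a median of 5.05 for Fbn1 (2.31 to 5.57), 4.93 for Fn1 (2.46 to 6.43), 4.15 for Sparc (3.16 to 5.71), 4.47 for Lox (1.82 to 5.39), 4.74 for Loxl1 (2.64 to 5.73) and 5.01 for Mmp2 (3.49 to 6.07). It was smaller for Adamts4 (median 2.53, 0.97 to 4.46), Timp3 (1.97, 0.22 to 2.74), Mmp14 (1.73, 0.93 to 3.05) and Timp1 (1.67, 0.96 to 2.70). The same 2 sets as across rats appeared within tumours, but these columns are also part of the sums per rat above. The 2 views are therefore not independent. The vehicle tumour P4T1 had the smallest difference for Fbn1, Fn1, Sparc, Lox, Loxl1 and Mmp2 and the largest for Timp3: its matrix-rich and epithelium-rich columns held 101.2 and 19.6 CPM of Fbn1, 107.6 and 16.4 CPM of Loxl1 and 210 and 30.5 CPM of Timp3.

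**Figure D2:**
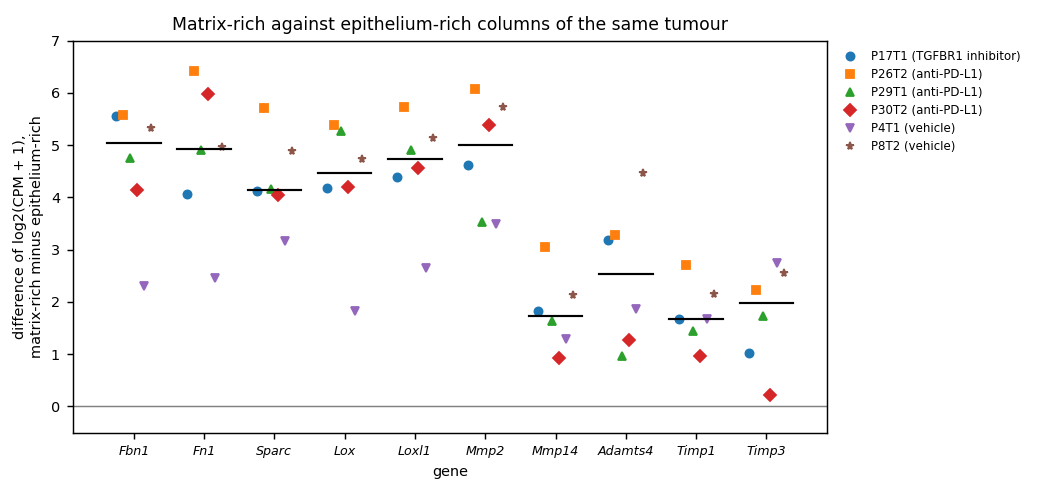
Difference of log2(CPM + 1) between the matrix-rich and the epithelium-rich column of the same tumour, for each gene and each of 6 tumours, with 1 symbol per tumour and a bar at the median. All differences are above 0, and the medians of Fbn1, Fn1, Sparc, Lox, Loxl1 and Mmp2 (4.15 to 5.05) lie above those of Adamts4, Timp3, Mmp14 and Timp1 (1.67 to 2.53).

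The 10 genes also differed in how they varied together over the 32 rats with matrix-rich or epithelium-rich columns, which mix both classes and so share the cut by Col1a1. With Col1a1 itself, Pearson's r of log2(CPM + 1) was 0.98 for Loxl1, 0.97 for Sparc, 0.95 for Mmp2, 0.93 for Lox, 0.92 for Fbn1 and 0.88 for Fn1. It was 0.82 for Mmp14, 0.76 for Timp1, 0.65 for Timp3 and 0.55 for Adamts4. Among members the closest pairs were Loxl1 with Mmp2 and Loxl1 with Sparc (0.96 each), and the loosest was Adamts4 with Fn1 (0.44). The inhibitors Timp1 and Timp3 had an r of 0.53 with each other.

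**Figure D3:**
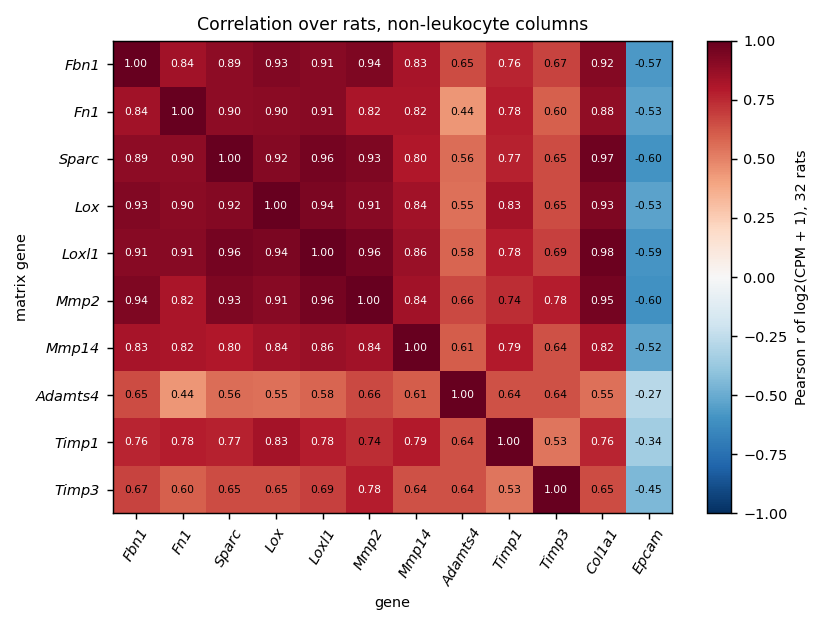
Pearson's r of log2(CPM + 1) between each pair of the 10 genes and with Col1a1 and Epcam, over 32 rats with matrix-rich or epithelium-rich columns. Fbn1, Fn1, Sparc, Lox, Loxl1 and Mmp2 form a block with values of 0.82 or more. Mmp14 is close to this block, with values of 0.80 to 0.86 with these genes. Adamts4 and Timp3 have the lowest values with Col1a1 (0.55 and 0.65).

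Within the classes Loxl1 and Sparc stayed close to Col1a1. Over 26 epithelium-rich rats Pearson's r and Spearman's rho with Col1a1 were 0.94 and 0.89 for Loxl1, 0.94 and 0.93 for Sparc and 0.89 and 0.85 for Mmp2, against 0.23 and 0.24 for Adamts4 and 0.32 and 0.20 for Timp3. Over 31 leukocyte rats they were 0.91 and 0.90 for Mmp2, 0.90 and 0.86 for Sparc and 0.86 and 0.81 for Loxl1, and Timp3 (0.71 and 0.70) was above Fn1 (0.48 and 0.42), Lox (0.47 and 0.21) and Fbn1 (0.41 and 0.41) there. Over 14 matrix-rich rats Loxl1 (0.86 and 0.93), Mmp14 (0.84 and 0.85) and Sparc (0.83 and 0.82) were highest. Mmp14 therefore stood with the collagen-following genes inside the matrix-rich class, while its r over epithelium-rich rats was 0.41. These values are descriptions, and the columns of a class differ in depth and purity between rats. The part of these differences in the correlations was not tested.

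Of 8918 genes with a mean of at least 10 CPM in these 32 rats, those most like Loxl1 were Col3a1 (r = 0.98), Col1a1 (0.98) and Lum (0.98), a collagen-binding proteoglycan. Sparc was most like Col6a2 (0.98), Gpx7 (0.97) and Col1a1 (0.97), and Lox was most like Spon1 (0.96), Col3a1 (0.96) and Ctsk (0.96), which encodes the collagen-cutting cathepsin K. Mmp2 was most like Serpinf1 (0.97), Loxl1 (0.96) and Col1a1 (0.95). Collagens recurred for Fbn1 as well, with Srpx, Col13a1 and Dchs1 (0.94 each), and for Fn1, with Ccdc80 (0.95), Col5a1 (0.93) and Lgals1 (0.93). No collagen was among the genes most like the other 4 members. Gjc1 (0.89) and Ext1 (0.88) were among the genes most like Timp1, and Timp3 was most like Plpp3 (0.86), Fyn (0.84) and Pmp22 (0.84). Adamts4 was most like Tubb6 (0.85), Pelo (0.85) and Plat (0.84), which encodes tissue plasminogen activator, and Mmp14 was most like Cpq (0.92), Txndc5 (0.91) and Glb1l (0.90).

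In leukocyte columns the members followed different marker sets. Over 31 leukocyte rats the summed CPM of 6 fibroblast markers had a Pearson's r and Spearman's rho of 0.92 and 0.91 with Sparc, 0.91 and 0.89 with Loxl1 and 0.91 and 0.86 with Mmp2. With Timp3 it had 0.68 and 0.63, and with Mmp14 0.55 and 0.57. The summed CPM of 5 macrophage markers had 0.83 and 0.88 with Fn1 and 0.77 and 0.86 with Timp1, and with the fibroblast sum the values were 0.46 and 0.46 for Fn1 and 0.49 and 0.52 for Timp1. Fn1 and Timp1 were also the 2 genes in which matrix-rich and leukocyte rats overlapped. Fbn1, Lox and Adamts4, with medians of 0.268 to 2.02 CPM there, had values between -0.18 and 0.48 with either sum.

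The members were set among their families with 10 lists of matrix assembly and turnover, which hold 123 genes and leave out the members. Of the genes at 10 CPM or more in at least 1 class, 11 of 12 crosslinking genes had a matrix-rich median over 2 times the epithelium-rich one, as did 6 of 6 collagens, 10 of 13 elastic fibre genes, 11 of 14 matricellular and proteoglycan genes and 6 of 7 protease inhibitors. The same held for 8 of 12 matrix metalloproteinases, 8 of 11 ADAMTS proteases, 8 of 11 genes of the plasminogen system and other matrix proteases, 3 of 8 fibronectin-binding integrins and 5 of 10 TGF-beta response genes, against 1236 of 9697 genes (12.8%) in the whole table. Col1a1, which cuts these 2 classes, is counted among the collagens and among the TGF-beta response genes, so its entry there follows from the rule. Elastin (Eln) had medians of 1237, 21.5 and 2.10 CPM in matrix-rich, epithelium-rich and leukocyte rats, and Loxl2 had 147, 7.42 and 1.90 CPM. Mmp12, the macrophage elastase, and Plaur, the urokinase receptor, had their highest medians in leukocyte rats, at 16.01, 11.2 and 186 CPM for Mmp12 and 187, 33.3 and 513 CPM for Plaur in the same order of classes. Timp2, which takes part in the activation of MMP2 by MMP14, had 1511, 227 and 105.3 CPM.

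Treatment was compared within each class, to ask whether the antibody or the TGFBR1 inhibitor went with a change of matrix genes in these cells. Matrix-rich and epithelium-rich columns numbered 7 and 8 on vehicle and 4 and 12 on anti-PD-L1. They numbered 2 and 6 on the inhibitor and 1 and 12 on the combination. Col1a1 cuts these classes and varied with the members, so a change of matrix genes could move a column between them. A comparison within a class would miss such a move, and whether class shares differed by treatment was not tested. No member passed an adjusted p of 0.05 in any of the 7 comparisons with at least 4 rats per arm (edgeR's quasi-likelihood test with Benjamini-Hochberg adjustment over all genes tested). The background was equally empty, with 0.0% of 13899 genes in matrix-rich, 0.0% of 13027 genes in epithelium-rich and 0.0% of 11932 genes in leukocyte columns passing. At an unadjusted p under 0.05 the members numbered 0 of 10 in matrix-rich columns on anti-PD-L1, where 970 genes did, and 2, 1 and 0 in epithelium-rich columns on anti-PD-L1, the TGFBR1 inhibitor and the combination, where 362, 902 and 543 genes did. In leukocyte columns they numbered 1, 1 and 3 on anti-PD-L1, the TGFBR1 inhibitor and the combination, where 1407, 2039 and 1869 genes did. With DESeq2, Sparc passed in leukocyte columns on the TGFBR1 inhibitor and on the combination, while it called 223 genes in matrix-rich columns, 0, 3 and 1 in epithelium-rich columns and 153, 414 and 335 in leukocyte columns, in the same order of arms. All comparisons of a class share the same vehicle rats. Over the 10 members the log2 fold changes had a median of 0.67 in matrix-rich columns on anti-PD-L1, against 0.03 over all genes. It was -1.22, -0.98 and -0.51 in epithelium-rich columns on anti-PD-L1, the TGFBR1 inhibitor and the combination, against -0.01, -0.04 and -0.04 over all genes, and -0.40, -1.37 and -1.29 in leukocyte columns, against -0.02, 0.00 and 0.01. The median SE of the members ran from 0.69 to 0.98 per comparison.

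**Figure D4:**
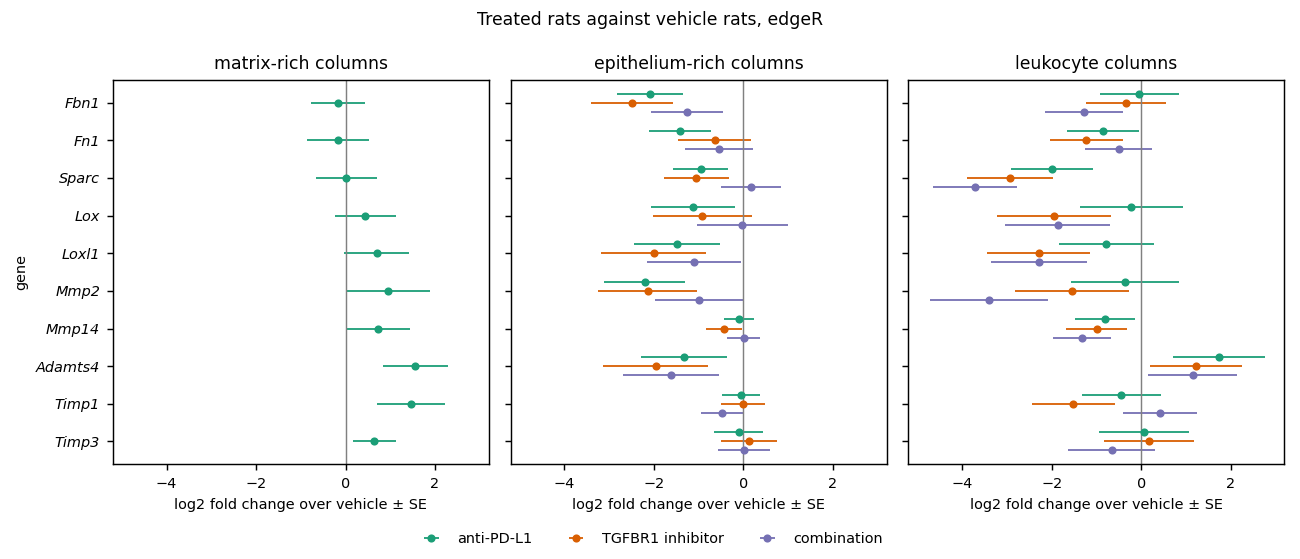
Log2 fold change of each gene, treated arm over vehicle, with bars of 1 SE, in the 7 comparisons tested by edgeR's quasi-likelihood test. No value passes an adjusted p of 0.05, and the lowest is that of Sparc in leukocyte columns of combination rats (-3.72, SE 0.93).

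In matrix-rich columns, Adamts4 had 68.8, 82.9, 121 and 413 CPM in the 4 anti-PD-L1 rats, against 33.2, 44.5, 54.2 and 144 CPM in the 4 vehicle rats. All 4 anti-PD-L1 rats were above the vehicle median, and the groups overlapped through the highest vehicle rat. The log2 fold change was 1.56 (SE 0.72, adjusted p = 0.729, edgeR). Timp1 had 120, 230, 1088 and 1794 CPM in anti-PD-L1 rats, against 300, 344, 363 and 402 CPM in vehicle rats, so that 2 treated rats lay below all vehicle rats and 2 above (log2 fold change 1.47, SE 0.76, adjusted p = 0.766, edgeR). Mmp2 had 1055, 1252, 1843 and 9879 CPM in anti-PD-L1 rats, against 268, 2364, 2540 and 3775 CPM in vehicle rats, with a fitted log2 fold change of 0.95 although 3 of the 4 treated rats were below the vehicle median. Sparc had 1517, 2654, 8094 and 9608 CPM in anti-PD-L1 rats and 3895, 4866, 5195 and 11450 CPM in vehicle rats, with a log2 fold change of 0.01 (SE 0.68). Without anti-PD-L1 rat P24 the log2 fold change was 0.48 for Adamts4 and 0.54 for Timp1. The remaining 6 genes had log2 fold changes of -0.17 to 0.74. An exact permutation test with 4 rats against 4 cannot go below p = 0.0286, and none of the 10 genes came lower than p = 0.171 in it.

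The leukocyte content of these matrix-rich columns differed between the arms: Ptprc had 0.385 to 3.43 CPM in anti-PD-L1 rats, against 11.1 to 23.04 CPM in vehicle rats, with no overlap. The sum of 5 macrophage markers was 9.54 to 32.9 CPM in anti-PD-L1 rats, against 66.6 to 218 CPM in vehicle rats. The part of these cells in the values of Fn1 and Timp1 was not tested. The single rat on the TGFBR1 inhibitor with matrix-rich columns had 502 CPM of Fbn1, 1608 CPM of Fn1, 569 CPM of Loxl1, 3233 CPM of Mmp2 and 4069 CPM of Sparc. The single combination rat had 123 CPM of Fbn1, 863 CPM of Fn1, 429 CPM of Loxl1, 655 CPM of Mmp2 and 2891 CPM of Sparc. Of these values, all but Sparc in the combination rat lay within the range of the 4 vehicle rats. Timp1, at 787 CPM in the inhibitor rat and 1090 CPM in the combination rat, and Adamts4, at 309 and 243 CPM, lay above every vehicle rat, as did Timp3 in the inhibitor rat, at 763 CPM against at most 587 CPM on vehicle. With 1 rat per arm there is no test.

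In epithelium-rich columns, Fbn1 had a lowest, median and highest level of 0.404, 10.04 and 16.03 CPM in 7 anti-PD-L1 rats. It had 3.59, 4.47, 7.49 and 10.6 CPM in TGFBR1 inhibitor rats, 7.59, 7.63, 13.3, 17.9 and 37.4 CPM in combination rats, and 3.81, 6.75, 19.6, 53.4 and 88.8 CPM in vehicle rats. All 7 anti-PD-L1 rats and all 4 inhibitor rats were below the vehicle median, and each arm overlapped with vehicle. The log2 fold change was -2.08 (SE 0.74, adjusted p = 1) on anti-PD-L1, -2.49 (SE 0.92, adjusted p = 0.616) on the TGFBR1 inhibitor and -1.26 (SE 0.81, adjusted p = 0.989) on the combination, by edgeR. Mmp2 had a lowest, median and highest level of 0, 38.3 and 169 CPM in anti-PD-L1 rats, 19.2, 31.1, 75.5 and 85.7 CPM in inhibitor rats, 37.9, 83.3, 113, 142 and 264 CPM in combination rats, and 22.98, 72.9, 84.3, 288 and 662 CPM in vehicle rats. The 2 highest rats of the 4 arms were vehicle rats, and the log2 fold changes were -2.20, -2.14 and -1.0 on anti-PD-L1, the TGFBR1 inhibitor and the combination, with adjusted p of 0.762 or more by edgeR. Both genes depended on single vehicle rats. Without vehicle rat P10 the Fbn1 log2 fold change was -1.17 on anti-PD-L1, -1.60 on the inhibitor and -0.35 on the combination, and without vehicle rat P7 that of Mmp2 was -1.30, -1.27 and -0.11.

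Loxl1 in the same columns had medians of 24.6 CPM on anti-PD-L1, 20.1 CPM on the TGFBR1 inhibitor and 23.9 CPM on the combination, against 8.73, 16.4, 23.2, 115 and 226 CPM in the vehicle rats. The arm medians thus lay around the middle vehicle rat, while the log2 fold changes were -1.48, -2.0 and -1.10 on anti-PD-L1, the TGFBR1 inhibitor and the combination, and 2 vehicle rats were higher than nearly all treated rats. Without vehicle rat P7 these were -0.61, -1.17 and -0.24. Adamts4 had medians of 28.4, 12.5 and 25 CPM on anti-PD-L1, the TGFBR1 inhibitor and the combination, against 0.422, 11.5, 19.7, 37.3 and 237 CPM in the vehicle rats. Without the vehicle rat P10, which holds the highest of these values, its log2 fold change was 0.78, 0.11 and 0.48, against -1.32, -1.96 and -1.61 with that rat. Mmp14, Timp1 and Timp3, the genes with the highest epithelium-rich levels relative to matrix-rich ones, had log2 fold changes of -0.48 to 0.12 over the 3 arms. For Timp3 the combination rats lay between 175 and 245 CPM and the vehicle rats between 30.5 and 348 CPM. The summed fibroblast markers overlapped between arms, with medians of 552 CPM on anti-PD-L1, 499 CPM on the TGFBR1 inhibitor, 554 CPM on the combination and 574 CPM on vehicle, and their highest sum was 6855 CPM in a vehicle rat.

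In leukocyte columns, Sparc had 5.08, 10.2 and 19.4 CPM in the lowest, median and highest of 6 combination rats. It had 12.5, 14.2, 19.9, 20.3 and 27.3 CPM in TGFBR1 inhibitor rats, 4.89, 14.7, 28.1, 45.04 and 85.2 CPM in anti-PD-L1 rats, and a lowest, median and highest level of 5.60, 40.02 and 736 CPM in 8 vehicle rats. All 6 combination rats and all 5 inhibitor rats were below the vehicle median, yet the 2 lowest vehicle rats, at 5.60 and 11.99 CPM, were as low as the treated ones. The log2 fold change was -3.72 (SE 0.93, adjusted p = 0.131) on the combination, -2.93 (SE 0.96, adjusted p = 0.164) on the TGFBR1 inhibitor and -1.99 (SE 0.91, adjusted p = 0.405) on anti-PD-L1, by edgeR. On mean log2(CPM + 1), the exact permutation test (two-sided, unadjusted) gave p = 0.021 for the combination, where the smallest p it allows is 0.000333, and p = 0.187 for the inhibitor. The fitted size rested in part on vehicle rat P6, the one at 736 CPM: without it the log2 fold change was -2.16 on the combination (adjusted p = 0.294), -1.39 on the inhibitor and -0.43 on anti-PD-L1. By batch number it was -5.35 in batch 2 and -1.26 in batch 3 on the combination, -4.30 and -0.76 on the inhibitor, and -4.38 and 1.08 on anti-PD-L1, where the direction turned.

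**Figure D5:**
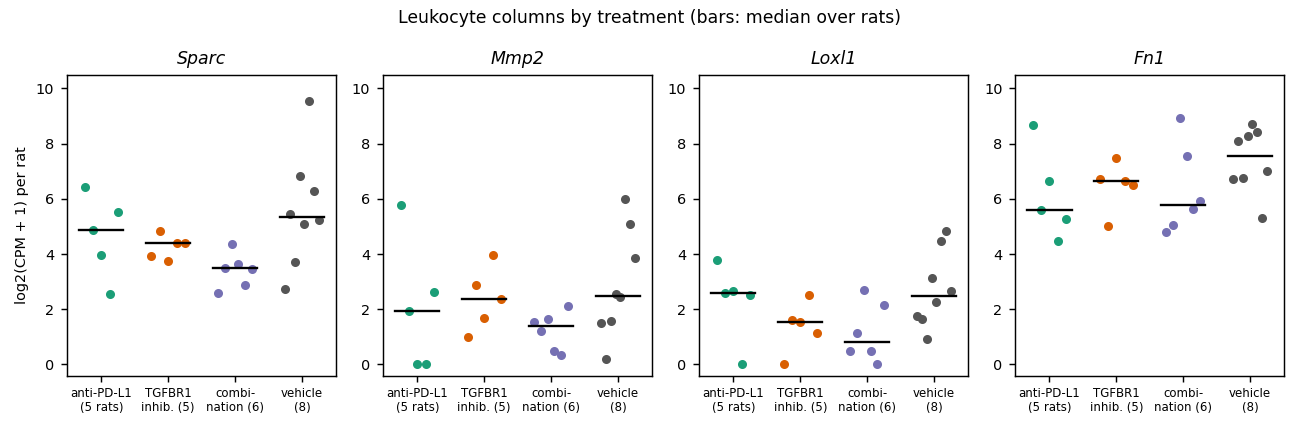
Levels of Sparc, Mmp2, Loxl1 and Fn1 as log2(CPM + 1) in leukocyte columns, with 1 point per rat and a bar at the median, by treatment. For Sparc all 6 combination rats (5.08 to 19.4 CPM) and all 5 TGFBR1 inhibitor rats (12.5 to 27.3 CPM) lie below the vehicle median of 40.02 CPM, and 2 vehicle rats lie among them.

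Mmp2 in leukocyte columns had 0.274, 1.62 and 3.34 CPM in the lowest, median and highest combination rats, against 0.150, 4.65 and 63.1 CPM in vehicle rats, with all 6 combination rats below the vehicle median (log2 fold change -3.40, SE 1.32, adjusted p = 0.223, edgeR). Loxl1 had 0, 0.803 and 5.48 CPM in combination rats, against 0.876, 4.61 and 27.4 CPM in vehicle rats (log2 fold change -2.28, SE 1.07, adjusted p = 0.306, edgeR). Its inhibitor rats had 0, 1.18, 1.92, 2.04 and 4.67 CPM, and 4 of 5 were below the vehicle median (log2 fold change -2.29, adjusted p = 0.310, edgeR). Timp3, which had the next highest r with the fibroblast sum, had log2 fold changes of -0.66 on the combination, 0.18 on the inhibitor and 0.06 on anti-PD-L1. Col1a1 itself had a log2 fold change of -3.69 on the combination (adjusted p = 0.202, edgeR). Its highest vehicle rat had 488 CPM and the next 31.25 CPM, against at most 13.9 CPM in combination rats. The Col1a1 fold change without that vehicle rat is not given here. The summed fibroblast markers had medians of 7.93 CPM in combination rats, 14.4 CPM in inhibitor rats, 57.6 CPM in anti-PD-L1 rats and 75 CPM in vehicle rats, where they ranged from 8.93 to 1045 CPM. Without the columns at 100 CPM or more of Col1a1, the Sparc log2 fold change on the combination was -2.09 (adjusted p = 0.189, edgeR). The summed CPM of 4 adipocyte markers had medians of 7.83 CPM in combination rats, 10.7 CPM in inhibitor rats, 23.5 CPM in anti-PD-L1 rats and 85.4 CPM in vehicle rats, where it ranged from 12.2 to 808 CPM. The part of fibroblast or adipocyte RNA in these differences was not tested further.

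Fn1 and Timp1 were the members that followed the macrophage markers in leukocyte columns. Timp1 had 17.2, 22, 27.3, 35.8 and 48.9 CPM in inhibitor rats, against 29.7, 75.4 and 152 CPM in the lowest, median and highest vehicle rats, and all 5 inhibitor rats were below the vehicle median. Its log2 fold change was -1.52 (SE 0.92, adjusted p = 0.411, edgeR), and the unadjusted exact permutation p was 0.0241. In combination rats Timp1 had 7.76, 7.87, 23.3, 23.7, 34.3 and 455 CPM, so that 5 of 6 were below the vehicle median. The fitted log2 fold change, on counts, was 0.42, while the difference of mean log2(CPM + 1), which weighs the rat at 455 CPM less, was -1.20. Fn1 had 27.1, 54.1 and 491 CPM in the lowest, median and highest combination rats, 31.04, 90.4, 97.96, 104.4 and 176 CPM in inhibitor rats, 21.3, 37.8, 47.2, 99.02 and 407 CPM in anti-PD-L1 rats, and 38.9, 198 and 419 CPM in the lowest, median and highest vehicle rats. All 5 inhibitor rats, 5 of 6 combination rats and 4 of 5 anti-PD-L1 rats were below the vehicle median of Fn1, with log2 fold changes of -1.23, -0.51 and -0.85 and adjusted p of 0.457 or more by edgeR. The macrophage sum moved with these genes: its median was 332 CPM in combination rats, 314 CPM in inhibitor rats, 404 CPM in anti-PD-L1 rats and 1341 CPM in vehicle rats, with overlap in each arm. Ptprc, which classed the columns, was at 1137 to 1647 CPM in combination rats, 996 to 1602 CPM in inhibitor rats and 1133 to 1539 CPM in anti-PD-L1 rats, against 680 to 1021 CPM in vehicle rats. The part of this difference in leukocyte content in the member values was not tested.

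Adamts4 was the member with positive log2 fold changes in leukocyte columns in each arm, at 1.74 on anti-PD-L1, 1.22 on the TGFBR1 inhibitor and 1.15 on the combination, with adjusted p of 0.497 or more by edgeR. Its levels were low, with medians of 0.765, 3.08 and 1.84 CPM in these arms against 1.11 CPM in vehicle rats, and on anti-PD-L1 only 2 of 5 rats were above the vehicle median. Leaving out 1 treated rat moved each value: it was 0.40 on anti-PD-L1 without rat P24, 0.74 on the inhibitor without rat P17 and 0.051 on the combination without rat P33. Mmp14 had medians of 12.9 CPM on anti-PD-L1, 13.9 CPM on the inhibitor and 6.45 CPM on the combination, against 23.99 CPM on vehicle, and all arms overlapped with vehicle. Fbn1, Lox and Timp3 had medians of 0.236 to 3.28 CPM over the arms, where 3 counts corresponded to 0.101 to 0.454 CPM per leukocyte column, so that small differences in Lox in particular were not detectable at this depth.

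Whether a treatment went with different changes in leukocyte and epithelium-rich columns was tested as the difference of the effects with limma (voom, rat as a block). No member passed for anti-PD-L1, where 0.0286% of 13996 genes passed, for the TGFBR1 inhibitor, where 0.0% did, or for the combination, where 0.815% did. On the combination the difference, leukocyte minus epithelium-rich, was -2.37 for Sparc (adjusted p = 0.354, limma) and -1.56 for Timp1 (adjusted p = 0.207, limma).

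None of the genes on the matrix lists, which leave out the members, passed the test in any class. In leukocyte columns 98 of the 123 genes were tested, with more in the other classes. Their lowest adjusted p by edgeR was 0.433 in matrix-rich columns on anti-PD-L1 and 0.616 or more in epithelium-rich columns. In leukocyte columns it was 0.288 on anti-PD-L1, 0.136 on the TGFBR1 inhibitor and 0.131 on the combination. On the combination 6 collagens of the list had a median log2 fold change of -2.69 in leukocyte columns, 14 matricellular and proteoglycan genes -1.48, 13 elastic fibre genes -1.02 and 12 crosslinking genes -0.65, against 0.01 over all genes. Integrins that bind fibronectin had a median of 0.50 there, and matrix metalloproteinases -0.13. The collagen list was also lowest on the TGFBR1 inhibitor, at -1.86 in leukocyte and -1.44 in epithelium-rich columns. On anti-PD-L1 it was lowest in epithelium-rich columns (-1.24) but not in leukocyte (-0.82) or matrix-rich columns (0.12). In epithelium-rich columns on the combination it was not the lowest either, at -0.24.

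Untreated tumours varied widely between rats. In matrix-rich columns of 4 untreated rats Loxl1 had 189, 391, 2214 and 5070 CPM, Mmp2 had 244, 810, 6513 and 6605 CPM, and Adamts4 had 81.96, 176, 350 and 469 CPM. The highest matrix-rich levels of Loxl1 and Adamts4 were in untreated rats, and that of Mmp2 (9879 CPM) was in an anti-PD-L1 rat. In epithelium-rich columns 4 of 5 untreated rats had 18.2 to 52.9 CPM of Sparc, below all combination, inhibitor and vehicle rats, and the fifth, rat C7, had 4252 CPM. Rat C7 was also the highest of all epithelium-rich rats for Fbn1, and the highest untreated rat for Loxl1 (267 CPM) and Mmp2 (647 CPM) in that class. Untreated and vehicle rats come from separate cohorts, so cohort and vehicle cannot be told apart. Untreated tumours also have no sample labelled DN, whereas vehicle tumours do.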

How the data were processed

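The members and the gene lists were chosen with earlier results of these data known. The authors deposited whole-number counts per gene symbol; the submitters' processing notes name rn6, STAR and FastQC. The sources used here give no counter, annotation or strand setting, so overlapping genes and close paralogs may share reads. RNA was amplified with a SMARTer low-input kit, per the labels' protocols; without molecular identifiers, the floors cover counting error only. The deposited sample table gives a batch number per tumour, and what a batch is was not stated by the authors. The count table used had 107 columns, and 1 other column was not used. Of these, 13 had a name that fits a single sample of the labels. Tumour P22T2 had 3 columns but 2 samples in the labels. No 2 columns were identical.

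Counts of a rat's columns in a class were summed and tested with edgeR 4.0.16 in R 4.3.3 (glmQLFit robust, glmQLFTest, TMM, filterByExpr, Benjamini-Hochberg at 0.05), 1 fit per class with all treatment arms that had rats. The SE was taken as the size of the log2 fold change divided by √F. Nothing in the labels says more of the rats than their number and cohort, and p-values measure the spread between rats. Matrix-rich columns had 1 rat each on the TGFBR1 inhibitor and the combination, so only anti-PD-L1 was tested there. No column came from a gland, so the planned comparison with glands was left out. Levels are CPM by column total, unnormalized by TMM, and log values use a pseudocount of 1. Named genes were the 10 members, the 3 class markers, list genes past the test (none) and the 3 genes most like each member, of which 1 is not reported here. Eln, Loxl2, Timp2, Mmp12, Plaur, Col1a2 and Col3a1 were named after their values were seen. Alternatives were RLE scaling, no filter, DESeq2 1.42.0, limma 3.58.1 (voom with the rat as a random block), each column as its own unit, stricter class limits, columns with a name that fits a single sample, an exact permutation test and leaving out each rat. Batches, the leukocyte columns without high Col1a1 and the difference between classes were added after seeing the data. The edgeR step was tested on simulated data. Figures were drawn with matplotlib 3.10.9 in Python 3.11.15.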

Additional observations from a re-analysis of the deposited data

Results flagged for a closer look

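In 8 of 130 groups of 4 to 10 rats, the highest or lowest rat lay farther from its nearest neighbour than Dixon's 95% critical value allows, a rule that chance meets in about 1 of 20 groups. Untreated rat C7 had 84.2 CPM of Lox and 4252 CPM of Sparc in its epithelium-rich column, where the next of 5 rats had 0.907 and 52.9 CPM. In matrix-rich columns, anti-PD-L1 rat P24 had 898 CPM of Timp3 against 421 CPM in the next rat, and vehicle rat P4 had 107.6 CPM of Loxl1 against 857 CPM in the next. In epithelium-rich columns, Mmp2 had 0 counts (0.0 CPM) in anti-PD-L1 rat P28, whose next rat had 28.8 CPM, and Timp3 had 122 CPM in TGFBR1 inhibitor rat P19 against 220 CPM in the next. Rat P28 also had the highest Ptprc level of the epithelium-rich columns, 124 CPM. In leukocyte columns, combination rat P33 had 455 CPM of Timp1 against 34.3 CPM in the next, and vehicle rat P6 had 4.42 CPM of Lox against 1.19 CPM.

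The column of the untreated tumour C5T1, with 165 CPM of Ptprc, belonged to no class and entered no comparison. It held 356 CPM of Sparc, 105.9 CPM of Timp1, 105.2 CPM of Mmp14, 103.2 CPM of Fn1, 78.3 CPM of Mmp2 and 73.6 CPM of Loxl1. Fbn1 (8.15 CPM), Adamts4 (8.85 CPM), Timp3 (3.61 CPM) and Lox (0.349 CPM, the level of 3 counts there) were low in it. Its Epcam level was 18.98 CPM and its Col1a1 level 644 CPM.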

How the results depend on the processing

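The count of genes past the test depended on the tool. DESeq2 called 223 genes in matrix-rich columns on anti-PD-L1, 3 and 1 in epithelium-rich columns on the TGFBR1 inhibitor and the combination, and 153, 414 and 335 in leukocyte columns on anti-PD-L1, the inhibitor and the combination, where edgeR called 0. With each column as its own unit, which counts a rat more than once, 337, 30 and 986 genes passed in leukocyte columns in the same order of arms. Limma voom called 2 genes there on anti-PD-L1 and 276 on the combination, 4 and 291 with batch as a covariate, and 16 genes passed on the combination with columns whose name fits a single sample. Of the members, DESeq2 called 1 on the inhibitor and 1 on the combination in leukocyte columns (Sparc, adjusted p = 0.0247 and 0.00186), and single columns called 3 on the combination (Sparc, Mmp2 and Mmp14). No other setting called a member. By Spearman's rho 14 of the 30 genes most like the members were shared.

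Among fold changes of 1 or more on the log2 scale, a limit chosen after seeing the data, these turned sign. For Adamts4 in epithelium-rich columns they were 0.82 (batch 2) and 0.15 (mean log2(CPM + 1)) on anti-PD-L1, 0.032 (voom) and 0.15 (voom with batch) on the inhibitor, and 0.063 (voom), 0.11 (batch 2) and 0.050 (mean log2(CPM + 1)) on the combination. Loxl1 there was 0.10 on the combination in batch 3. In leukocyte columns Sparc was 1.08 on anti-PD-L1 and Mmp2 0.15 on the inhibitor in batch 3, Adamts4 was -1.03 on the inhibitor and Fbn1 0.46 on the combination with columns whose name fits a single sample, and Adamts4 was -0.14 on the combination in batch 2. In these the cause was not tested.

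Leaving out each rat in turn gave 0 to 11 genes in matrix-rich columns (11 without anti-PD-L1 rat P24), 0 to 297 in leukocyte columns on the inhibitor and 0 to 42 on the combination (both highest without vehicle rat P7), and 0 members throughout. Adamts4 in epithelium-rich columns ranged from -1.73 to 0.78 on anti-PD-L1, -2.75 to 0.11 on the inhibitor and -1.94 to 0.48 on the combination, positive without vehicle rat P10. RLE scaling shifted the log2 fold changes of the members by a median of -0.05 to 0.02 per comparison. Median levels under TMM totals or stricter class limits were 0.694 to 1.54 times those given, within the spread between rats. No paired analysis was possible because replicate numbers follow accession order and the arms hold different rats. Batch as a covariate on sums per rat, batch 2 in matrix-rich columns, and single-name columns outside the leukocyte class on the inhibitor and the combination could not be fitted. Few rats, shallow columns and levels near the floor limit Lox, Fbn1 and Timp3 in leukocyte columns.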

Other observations

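Partners of the members were distributed differently over the classes. Of the latent TGF-beta binding proteins, which sit on fibrillin microfibrils, Ltbp4 had medians of 282, 31.9 and 11.1 CPM in matrix-rich, epithelium-rich and leukocyte rats, whereas Ltbp2 had 157, 177 and 1.61 CPM and Ltbp1 had 110, 70.8 and 1.00 CPM. Of the integrin chains that bind fibronectin, Itga5 had 160, 24.8 and 18.8 CPM, Itga8 had 96.0, 114 and 1.56 CPM, and Itga4, known from leukocytes, had 46.1, 3.10 and 149 CPM. These genes were chosen after their values were seen, and the values are given with no test.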
